A study of Mus musculus with 6 samples.

Results

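Transcription factors that direct granulocyte development were examined as a set of 10 genes, Cebpa, Cebpb, Cebpd, Cebpe, Gfi1, Spi1, Runx1, Klf5, Bcl6 and Jdp2, in mouse dendritic cells sorted by the neutrophil surface protein Ly6G. A probe set, the group of short oligonucleotides that reads out one transcript on the array, was taken when the platform annotation gave it 1 gene symbol and that symbol was on the list. This selected 20 of the 45101 probe sets on the array, for 9 of the 10 genes. Cebpa, Spi1 and Gfi1 had 1 probe set each, Cebpb, Cebpd, Jdp2 and Bcl6 had 2 each, Klf5 had 3 and Runx1 had 6. No probe set carried the symbol Cebpe in the annotation used, so Cebpe was not analysed here.

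Granulocytes form from myeloid progenitors under a small number of transcription factors. PU.1, encoded by Spi1, and RUNX1 act early in the myeloid branch, and C/EBP alpha is needed for the step to granulocyte and monocyte progenitors. C/EBP beta is known for the increased granulocyte output of infection and cytokine stimulation, C/EBP epsilon for the late steps in which specific granules are made, and the repressor GFI1 for neutrophil fate. Several of these genes are not limited to granulocytes: PU.1 is required for dendritic cells, C/EBP beta and C/EBP delta are induced in macrophages and dendritic cells by inflammatory signals, and BCL6 is known in dendritic cells and B cells.

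Dendritic cells carrying Ly6G (Ly6G+ DC) and dendritic cells lacking it (Ly6G- DC) were represented by 3 samples each, every one on 1 Affymetrix Mouse Genome 430 2.0 array. In both groups, bone marrow of C57BL/6 mice had been grown with GM-CSF, a myeloid growth factor, at 10 ng/ml, and cells positive for CD11c and MHC class II were sorted on day 6, with both groups taken from the same cultures, so they differed by label in Ly6G alone. Crude marrow was cultured, and a gate on surface proteins can hold more than 1 cell type. No age of the mice and no separate cultures or animals per sample are named in the labels, so the spread between samples may be technical.

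Sequences upstream of the annotated starts are given for Cebpb, 1 of the 2 genes with a probe set whose groups did not overlap, and for Runx1, whose probe sets disagreed and which has 2 starts in the table. They are 250 bases ending at the base before the start, from RefSeq (GRCm38.p6), on the gene's strand, 5′ to 3′. The Cebpb window is chr2:167688665-167688914 on the plus strand, with capitals at matches to the GC box CCGCCC or its reverse complement. The Runx1 windows are chr16:92826075-92826324 and chr16:92697330-92697579, both on the minus strand, with capitals at matches to the PU.1 motif GAGGAA or its reverse complement.
Cebpb: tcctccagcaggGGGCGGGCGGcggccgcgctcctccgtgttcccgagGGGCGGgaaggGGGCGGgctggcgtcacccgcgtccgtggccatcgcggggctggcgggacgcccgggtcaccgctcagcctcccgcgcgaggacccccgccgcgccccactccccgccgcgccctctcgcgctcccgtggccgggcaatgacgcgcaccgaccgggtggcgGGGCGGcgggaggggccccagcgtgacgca
Runx1 start 1: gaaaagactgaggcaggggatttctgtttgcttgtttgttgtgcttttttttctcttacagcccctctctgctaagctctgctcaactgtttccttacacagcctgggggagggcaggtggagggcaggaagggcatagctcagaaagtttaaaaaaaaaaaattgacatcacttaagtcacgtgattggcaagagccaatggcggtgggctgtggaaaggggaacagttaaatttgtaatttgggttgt
Runx1 start 2: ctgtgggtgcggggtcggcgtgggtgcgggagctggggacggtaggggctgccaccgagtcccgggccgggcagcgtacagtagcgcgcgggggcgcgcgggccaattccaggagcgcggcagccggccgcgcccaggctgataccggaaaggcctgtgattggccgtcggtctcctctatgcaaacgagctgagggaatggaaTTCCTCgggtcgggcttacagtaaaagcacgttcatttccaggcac

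The Cebpb window held 5 matches to the GC box, some sharing bases in the run of capitals near its left end, and 81.6% of its bases were G or C. Of 32817 windows of the same length in the table, 32.7% held at least 1 match to this motif. The first Runx1 window had no match to GAGGAA and 45.6% G or C, and the second had 1 match and 67.6% G or C, where 23.3% of windows held a match. Both strands were also searched for TATAAA (the TATA box), TGACGTCA (the cAMP response element), TGANTCA (AP-1), TTGCNNAA (C/EBP) and TGTGGT (RUNX), and none of these letters were found in the 3 windows. They occurred in 12.4%, 1.55%, 6.75%, 9.57% and 14% of all windows. Matches of this kind describe the letters only.

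The arrays stood apart in a way that crossed the groups. Probe sets for transcripts spiked in before hybridization had a geometric mean signal of 1648, 6688 and 2039 on Ly6G+ DC arrays 1 to 3 and of 1529, 12321 and 12842 on Ly6G- DC arrays 1 to 3. Their widest gap put Ly6G+ DC 2, Ly6G- DC 2 and Ly6G- DC 3 on a high side and the other arrays on a low side. The Actb signal at the 3' end over that at the 5' end, a measure of how complete the amplified RNA is, was 3.98 to 6.85 on the high side and 1.17 to 1.49 on the low side. What separates the sides is not given in the sources used here, so the main probe sets below are also given within them, where 1 array of one group meets 2 of the other.

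Signals were compared as log2(signal + 16) with limma, and 28254 probe sets were tested after removal of dim ones. A probe set was kept when it exceeded the 40th percentile of its array on at least 3 of the 6 arrays, and 18 of the 20 transcription factor probe sets were kept, for 8 genes. Those left out were the Gfi1 probe set and 1 of Klf5. With adjustment over all 28254, 0 of the 18 passed an adjusted p of 0.05 (smallest 0.836) by limma, and of all kept probe sets 0% passed. At an unadjusted p under 0.05 there was 1 of 18, a probe set of Cebpd, higher in Ly6G+ DC, against 5.62% of all kept probe sets in either direction, 2.75% higher and 2.87% lower. Signals of the groups did not overlap for 2 of 18 (11.1%), both higher in Ly6G+ DC, where the share over all kept probe sets was 11.7%, with 4.49% higher and 7.24% lower. Log2 fold changes were above 0 for 8 of 18 (44.4%), against 45% of all kept probe sets. These shares lay near those of the whole array. The median of the 18 log2 fold changes was -0.03, with -0.06 over all kept probe sets.

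**Figure D1:**
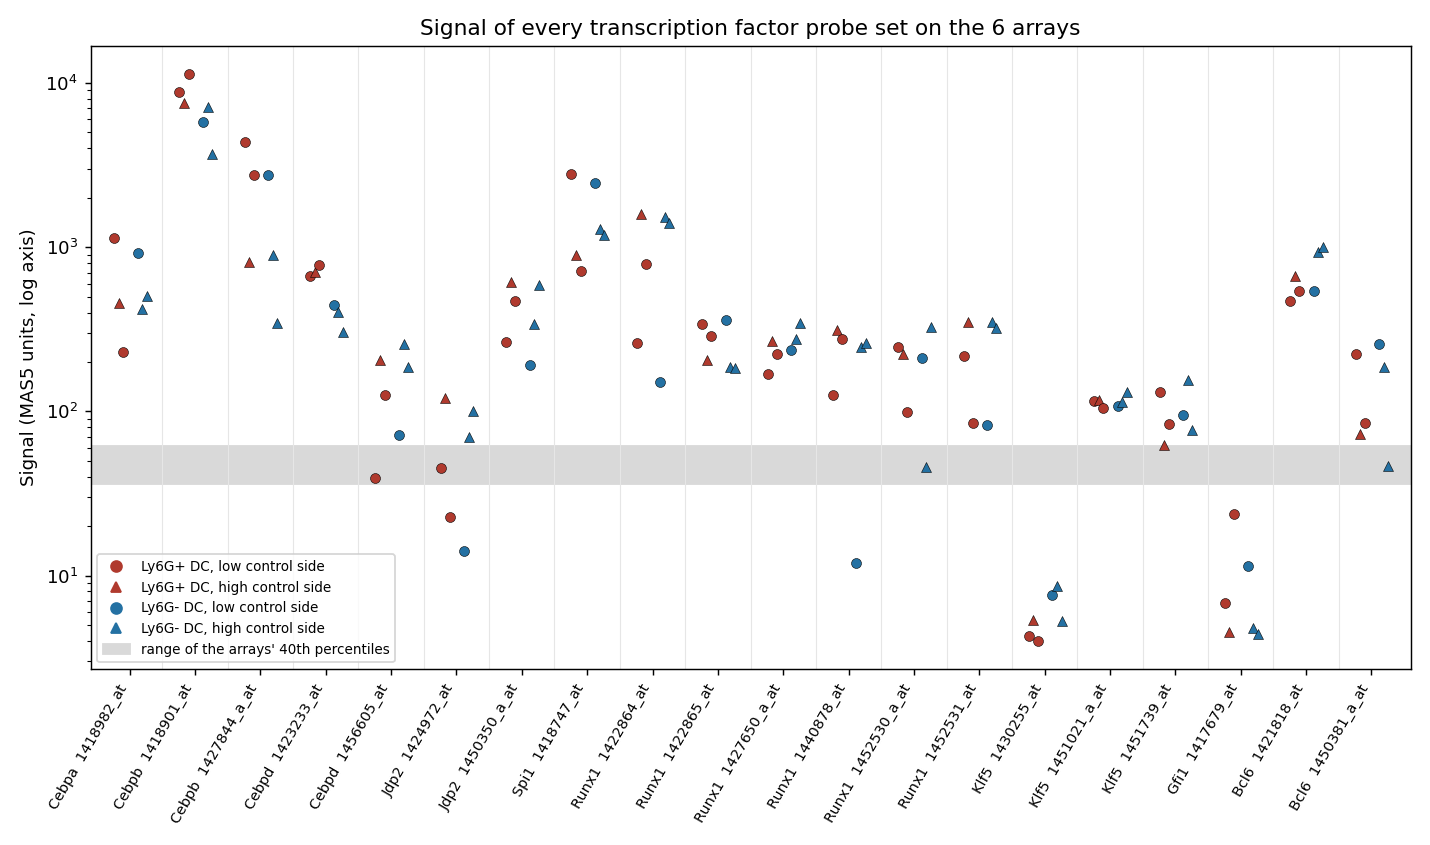
Signal of each of the 20 probe sets on the 6 arrays, on a log axis, with Ly6G+ DC left of Ly6G- DC, triangles for arrays on the high side of the spiked-in controls and circles for the low side. The grey band runs from 36.0 to 61.7, the range of the arrays' 40th percentiles. Cebpb 1418901_at and Cebpd 1423233_at are the kept probe sets whose groups do not overlap, and Gfi1 lies under the band on all arrays.

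Cebpd, which encodes C/EBP delta, an inducible member of the family, had the smallest p of the set. Its probe set 1423233_at had signals of 666, 704 and 781 on the Ly6G+ DC arrays, against 446, 403 and 304 on the Ly6G- DC arrays. All Ly6G+ DC arrays lay above all Ly6G- DC arrays, with a gap wider than the spread of either group. Means were 717 ± 58.6 over Ly6G+ DC arrays and 384 ± 73.0 over Ly6G- DC arrays (SD, n = 3). The log2 fold change was 0.89 ± 0.29 (SE), a 1.85-fold difference, with a 95% confidence interval of 0.24 to 1.53 and an unadjusted p of 0.0116 by limma. The adjusted p was 0.836, so it did not pass. The log2 fold change was 0.67 within the low side and 0.98 within the high side, and 0.56 and 1.05 within the array names of number 1 and of numbers 2 and 3. With the side as a block it was 0.82 ± 0.27 (SE). Without Ly6G- DC 3 the unadjusted p was 0.0531 by limma, at a log2 fold change of 0.73.

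The other probe set of Cebpd, 1456605_at, did not show this. Its signals were 39.3, 206 and 126 on the Ly6G+ DC arrays, against 71.5, 256 and 186 on the Ly6G- DC arrays, so the groups overlapped. The log2 fold change was -0.49 ± 0.58 (SE) and -0.03 ± 0.44 with the side as a block. The 3 arrays of the high side were the 3 highest, and 1 Ly6G+ DC array lay under its 40th percentile.

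Cebpb, which encodes C/EBP beta, was bright on every array. Probe set 1418901_at had signals of 8822, 7584 and 11300 on the Ly6G+ DC arrays, against 5776, 7102 and 3668 on the Ly6G- DC arrays. The groups did not overlap, but Ly6G+ DC 2 and Ly6G- DC 2 lay close together. The means were 9235 ± 1892 over Ly6G+ DC arrays and 5515 ± 1732 over Ly6G- DC arrays (SD, n = 3). The log2 fold change of 0.77 ± 0.36 (SE) had a 95% confidence interval of -0.03 to 1.58, and the adjusted p was 0.836. Within the low and the high side it was 0.79 and 0.57, and within the array names 0.61 and 0.86. Without Ly6G- DC 3 it was 0.51 ± 0.39 (SE), and without Ly6G- DC 2 it was 0.98 (unadjusted p of 0.0430 by limma).

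Probe set 1427844_a_at of Cebpb had signals of 4364, 814 and 2752 on the Ly6G+ DC arrays, against 2760, 899 and 346 on the Ly6G- DC arrays. The groups overlapped, and the 3 arrays of the low side were the 3 highest of the 6. Its log2 fold change was 1.15 ± 0.74 (SE) with the group alone and 0.43 ± 0.36 with the side as a block. Both probe sets of Cebpb had positive values, and neither passed. Leaving out Ly6G- DC 3 gave 0.44, and leaving out Ly6G- DC 1 or Ly6G+ DC 2 gave 1.91 and 1.84, with unadjusted p of 0.00599 and 0.0284 by limma.

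Cebpa, which encodes C/EBP alpha, had signals of 1143, 459 and 231 on the Ly6G+ DC arrays, against 919, 419 and 504 on the Ly6G- DC arrays. The highest and the lowest array were both Ly6G+ DC, and the array numbered 1 was the brightest of each group. The log2 fold change of probe set 1418982_at was -0.21 ± 0.53 (SE), with a 95% confidence interval of -1.39 to 0.96. It was -0.81 within the low side and -0.00017 within the high side, and 0.31 and -0.47 within the array names of number 1 and of numbers 2 and 3. Without Ly6G+ DC 3 it was 0.32 and without Ly6G+ DC 1 it was -0.80, and with all arrays scaled to a common median it was 0.11.

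Spi1, which encodes PU.1, was above the 75th percentile on all 6 arrays. Its signals were 2785, 890 and 711 on the Ly6G+ DC arrays, against 2448, 1295 and 1192 on the Ly6G- DC arrays. The number 1 arrays were again the brightest of each group, and the groups overlapped. The log2 fold change was -0.36 ± 0.50 (SE), with -0.79 within the low side and -0.47 within the high side. Within the array names it was 0.18 for number 1 and -0.63 for numbers 2 and 3. Without Ly6G+ DC 1 it was -0.96 ± 0.39 (unadjusted p of 0.0359 by limma), and without Ly6G+ DC 3 it was 0.02.

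Runx1, which encodes the DNA-binding subunit of core binding factor, was read by 6 probe sets, all kept, and they did not give one direction. Of the 6, 3 had positive and 3 negative log2 fold changes, from -0.36 ± 0.32 (1427650_a_at) to 0.92 ± 0.79 (1440878_at), and none passed. Probe set 1440878_at had signals of 126, 315 and 277 on the Ly6G+ DC arrays, against 11.9, 247 and 261 on the Ly6G- DC arrays. Its difference rested on the low signal of Ly6G- DC 1, and without that array the value was -0.17. With the side as a block it was 1.58 ± 0.55 (SE, unadjusted p of 0.0152 by limma), with 2.87 within the low side, which holds Ly6G- DC 1, and 0.30 within the high side. Within the array names it was 2.35 for number 1 and 0.21 for numbers 2 and 3.

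Probe set 1422864_at of Runx1 had signals of 263, 1590 and 791 on the Ly6G+ DC arrays, against 152, 1524 and 1394 on the Ly6G- DC arrays. The arrays of the high side lay at 1394 to 1590 in both groups and those of the low side at 152 to 791. Its log2 fold change was -0.0048 ± 0.84 (SE) with the group alone, 0.81 ± 0.43 with the side as a block and 0.32 with arrays scaled to a common median. Within the array names it was 0.73 for number 1 and -0.37 for numbers 2 and 3. Probe set 1422865_at, which the annotation ties to the same transcript accession, ran the other way between the sides. It had 338, 205 and 286 on the Ly6G+ DC arrays, against 362, 186 and 184 on the Ly6G- DC arrays, with the arrays of the high side the lowest, and a log2 fold change of 0.21 ± 0.37 (SE).

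The other Runx1 probe sets overlapped between groups. Probe set 1427650_a_at had 168, 269 and 222 on the Ly6G+ DC arrays, against 237, 276 and 344 on the Ly6G- DC arrays, with lower means in Ly6G+ DC (220 ± 50.5) than in Ly6G- DC (286 ± 54.1; SD, n = 3). Probe sets 1452530_a_at and 1452531_at had log2 fold changes of 0.20 ± 0.61 and -0.16 ± 0.60 (SE), the second 0.13 under common-median scaling. The first had 246, 224 and 99.2 on the Ly6G+ DC arrays, against 210, 45.7 and 324 on the Ly6G- DC arrays. The second had 217, 351 and 84.9 on the Ly6G+ DC arrays, against 82.2, 348 and 323 on the Ly6G- DC arrays, with the high side above the low side. The table of starts used above does not tie probe sets to either Runx1 start.

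Jdp2, a bZIP factor that can repress transcription through AP-1 sites, had 2 kept probe sets with overlapping groups. Probe set 1450350_a_at had signals of 265, 610 and 473 on the Ly6G+ DC arrays, against 192, 339 and 587 on the Ly6G- DC arrays, and a log2 fold change of 0.32 ± 0.45 (SE). It was 0.83 within the low side and 0.44 within the high side, 0.43 and 0.26 within the array names of number 1 and of numbers 2 and 3, and -0.07 without Ly6G- DC 1. Probe set 1424972_at was dim, above the 40th percentile on 1 Ly6G+ DC and 2 Ly6G- DC arrays, with signals of 44.9, 121 and 22.8 on the Ly6G+ DC arrays, against 14.1, 70.1 and 101 on the Ly6G- DC arrays, and a log2 fold change of 0.03 ± 0.69 (SE).

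Klf5, a Krüppel-like factor, lay between the 40th and 75th percentiles on all arrays in both of its kept probe sets. Probe set 1451021_a_at varied little, with signals of 116, 117 and 105 on the Ly6G+ DC arrays, against 108, 113 and 132 on the Ly6G- DC arrays. Its log2 fold change was -0.06 ± 0.35 (SE), with a 95% confidence interval of -0.83 to 0.72. Probe set 1451739_at had 132, 62.2 and 84.3 on the Ly6G+ DC arrays, against 94.6, 155 and 77.5 on the Ly6G- DC arrays, and -0.20 ± 0.43. Both values turned positive (0.24 and 0.09) with arrays scaled to a common median. The third, 1430255_at, had signals of 4.01 to 5.39 in Ly6G+ DC and 5.27 to 8.67 in Ly6G- DC. All lay under the 40th percentile of their arrays, and it was left out of the main fit.

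Gfi1 and Bcl6 encode zinc finger repressors. The Gfi1 probe set 1417679_at had signals of 6.77, 4.55 and 23.8 on the Ly6G+ DC arrays, against 11.4, 4.83 and 4.40 on the Ly6G- DC arrays. All 6 lay under the 40th percentiles, so Gfi1 was not distinguishable from the dim part of the array in either group and no fold change is given. Bcl6 1421818_at lay above the 75th percentile on all arrays, with 467, 664 and 543 on the Ly6G+ DC arrays, against 544, 935 and 1001 on the Ly6G- DC arrays. Ly6G+ DC 2 lay above Ly6G- DC 1, so the groups overlapped. The means were 558 ± 99.3 over Ly6G+ DC arrays and 827 ± 247 over Ly6G- DC arrays (SD, n = 3), and the log2 fold change was -0.52 ± 0.33 (SE), with an adjusted p of 0.843 by limma.

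The direction of Bcl6 1421818_at held on both sides, with -0.11 within the low side and -0.53 within the high side, and within both array names, with -0.21 for number 1 and -0.67 for numbers 2 and 3. With the side as a block it was -0.32 ± 0.26 (SE). Without Ly6G- DC 1 it was -0.79 (unadjusted p of 0.0306 by limma). Its other probe set, 1450381_a_at, had signals of 224, 73.2 and 84.6 on the Ly6G+ DC arrays, against 255, 186 and 46.5 on the Ly6G- DC arrays, and a log2 fold change of -0.22 ± 0.60, which was 0.06 under common-median scaling.

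Fits with a block were made for the sides and for the array names. With the side of the spiked-in controls as a block, 3 of the 18 had an unadjusted p under 0.05 by limma, all higher in Ly6G+ DC (Cebpb 1418901_at, Cebpd 1423233_at and Runx1 1440878_at), against 6.63% of all kept probe sets. With the array name of the sample titles as a block, 4 of the 18 did, against 10.5% of all kept probe sets: both Cebpb probe sets and Cebpd 1423233_at, higher, and Bcl6 1421818_at, lower. After adjustment 0 of the 18 passed with either block, against 0% and 0.0743% of all kept probe sets.

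**Figure D2:**
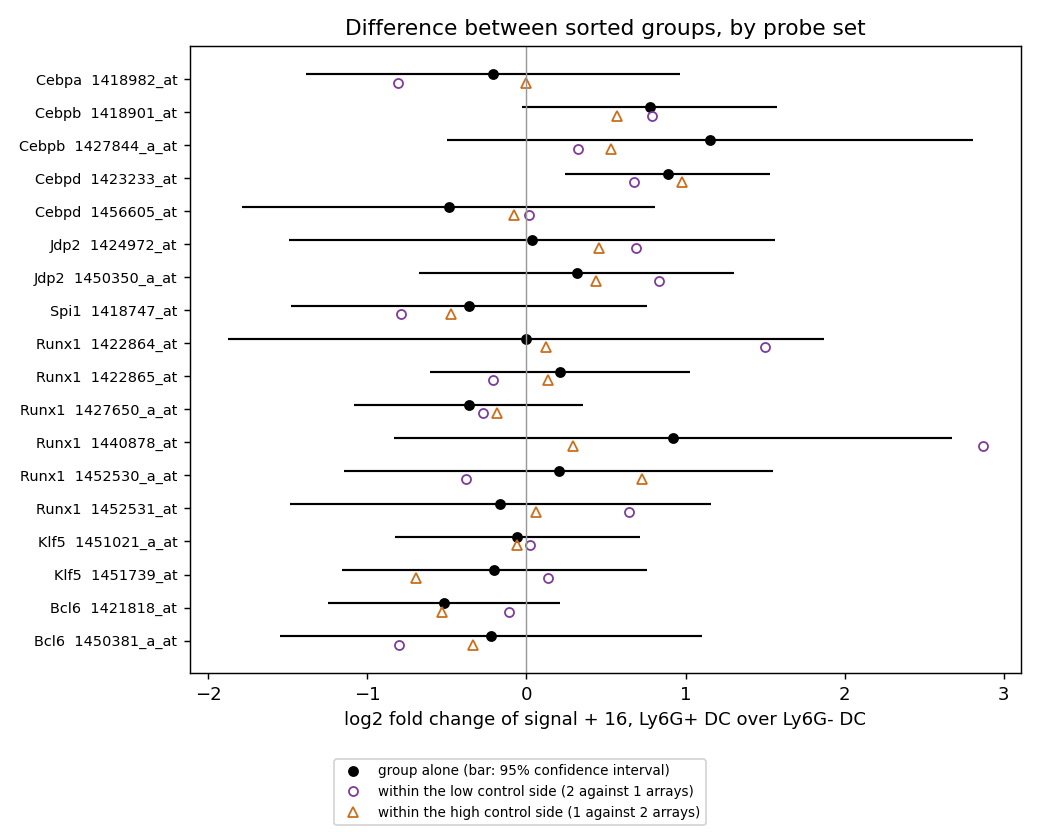
Log2 fold changes of signal + 16, Ly6G+ DC over Ly6G- DC, for the 18 kept probe sets. Black points are the fit of the group alone with 95% confidence intervals, and open circles and triangles are the values within the low and the high side of the spiked-in controls. The interval of Cebpd 1423233_at (0.24 to 1.53) is the one that leaves out 0.

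Many of these probe sets differed more between the sides than between the sorted groups. In the fit with both terms, the side difference was larger in size than the group difference for 14 of the 18 probe sets, against 61.5% of all kept probe sets. Signals of the sides did not overlap for 8 of 18 (44.4%), with 6 higher and 2 lower on the high side, against 28.8% of all kept probe sets (17.3% higher and 11.5% lower), and 3 of 18 (16.7%) passed an adjusted p of 0.05 for the side by limma, against 4.91%. These were Runx1 1422864_at with a log2 difference, high minus low side, of 2.45 ± 0.43 (SE), Runx1 1452531_at with 1.55 ± 0.39 and Cebpb 1427844_a_at with -2.17 ± 0.36. Runx1 alone, with 6 of the 18 probe sets, gave 4 of the 8 without overlap and 2 of these 3. The probe sets are therefore not separate members in these shares. Probe sets of 1 gene parted here: Runx1 1422865_at had -0.74 ± 0.30, and Cebpb 1418901_at had -0.29 ± 0.28. The 3' to 5' ratio of Actb moved with the sides, and its part in these differences was not tested.

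**Figure D3:**
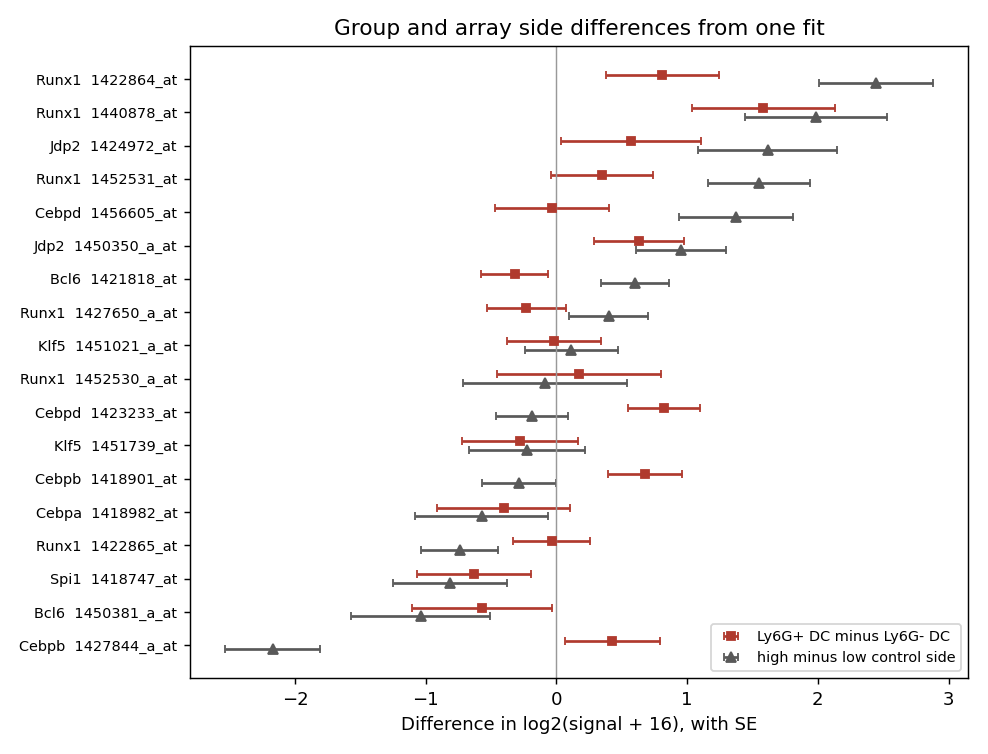
Differences in log2(signal + 16) with SE from 1 fit that held both terms, for the 18 kept probe sets ordered by the side difference. Red squares are Ly6G+ DC minus Ly6G- DC and grey triangles are the high minus the low side of the spiked-in controls. Side differences run from -2.17 to 2.45, while Cebpd 1423233_at and Cebpb 1418901_at have group differences of 0.82 and 0.68 beside side differences of -0.19 and -0.29.

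Markers of cell types were measured beside these genes, each by its kept probe set with the highest mean log2 signal, and 0 passed after adjustment. Among all 13262 genes with a kept probe set, 2.99% were higher and 3.19% lower at an unadjusted p under 0.05 by limma. The groups did not overlap for 4.95% (higher in Ly6G+ DC) and 7.86% (lower). The 14 kept neutrophil markers, which include the calprotectin gene S100a8, had summed signals of 68257 to 90631 in Ly6G+ DC and 3823 to 15281 in Ly6G- DC. Of these 14 markers 13 were higher in Ly6G+ DC at an unadjusted p under 0.05 by limma and 0 lower, and Lrg1 had a log2 fold change of 4.63 ± 0.56 and Cxcr2 of 3.07 ± 0.39 (SE). Lrg1 (6.76, 8.51 and 8.87) and Cxcr2 (14.7, 24.3 and 19.2) lay under the 40th percentile on every Ly6G- DC array. Both were kept through the Ly6G+ DC arrays alone, which favours a higher value there. The 13 dendritic cell markers, among them the sort genes Itgax and H2-Aa, had 92486 to 182004 in Ly6G+ DC and 144037 to 339331 in Ly6G- DC. Of these 0 were higher and 4 lower at an unadjusted p under 0.05 by limma. Flt3 had -1.86 ± 0.43 and Ccr7 -0.98 ± 0.37 (SE). Itgax had -0.49 ± 0.43 and H2-Aa -1.30 ± 0.74, with overlapping groups, and -0.59 ± 0.38 and -0.61 ± 0.25 with the side as a block. The summed dendritic cell signals also moved with the sides. Every high-side array (182004, 276731 and 339331) exceeded every low-side array (111416, 92486 and 144037). Among arrays of the same side, Ly6G+ DC had the lower sums.

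The 8 kept monocyte markers summed to 20197 to 30413 in Ly6G+ DC and 9308 to 25748 in Ly6G- DC. Of these 5 were higher and 0 lower at an unadjusted p under 0.05 by limma, and for 4 the groups did not overlap. The median log2 fold change was 0.96, with Plac8 at 1.63 ± 0.43 and Vcan at 1.23 ± 0.39 (SE). The monocyte sums also moved with the sides, at 30194, 30413 and 25748 on low-side arrays and 20197, 16917 and 9308 on high-side arrays. Among arrays of the same side, Ly6G+ DC had the higher sums. The 7 kept eosinophil, basophil and mast cell markers summed to at most 3780 in Ly6G+ DC and 1506 in Ly6G- DC, with 2 higher and 0 lower. These were the granule protein genes Prg2 (2.61 ± 0.53) and Epx (1.98 ± 0.64). Of the 10 macrophage markers, at 34542 to 45373 in Ly6G+ DC and 30105 to 56876 in Ly6G- DC, 0 were higher or lower at that level, and Mrc1 had 1.47 ± 0.67 and Cd68 0.46 ± 0.32.

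The 4 kept T and NK markers summed to at most 1235 in Ly6G+ DC and 2119 in Ly6G- DC, with 0 higher and 2 lower, Zap70 at -1.42 ± 0.51 and Klrd1 at -0.86 ± 0.33 (SE). The 5 B lymphocyte markers summed to at most 619 in Ly6G+ DC and 972 in Ly6G- DC, and the 3 erythroid markers to at most 3175 in Ly6G+ DC and 4327 in Ly6G- DC, with 0 higher or lower in both lists. Ms4a1 had -0.75 ± 0.38 and Pax5 -0.25 ± 0.39, and Epor had 0.995 ± 0.51 and Car2 -0.38 ± 0.31. In RNA from sorted pools, a changed share of a cell type and a changed level per cell cannot be told apart, and the part of these markers in the values of Cebpb, Cebpd and Bcl6 was not tested.

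Granule genes and growth factor receptors of the granulocyte lineage were set beside the factors. Each listed gene stands by 1 kept probe set, the one with the highest mean log2 signal, and 0 passed after adjustment over all probe sets tested. Over all 13262 genes with a kept probe set, 2.99% were higher and 3.19% lower in Ly6G+ DC at an unadjusted p under 0.05 by limma, and the median log2 fold change was -0.07. Of these genes 4.95% had all Ly6G+ DC arrays above all Ly6G- DC arrays and 7.86% had all of them below, and 44.3% had a value above 0. Of 17 kept specific and gelatinase granule genes, known targets of C/EBP epsilon among them, 14 were higher at that level and 0 lower, with a median of 2.25. For 11 of the 17 the groups did not overlap, all higher in Ly6G+ DC, and 16 had a value above 0. Ngp had 3.20 ± 0.46 and Lcn2 4.48 ± 0.67 (SE). Of 5 kept genes on the list for primary granule enzymes 1 was higher, the protease inhibitor gene Serpinb1a with 3.03 ± 0.60. Its signals on the Ly6G- DC arrays were 4.60, 51.8 and 10.0, each under that array's 40th percentile. It was therefore kept through the Ly6G+ DC arrays alone. The same held for Cd177 on the specific and gelatinase granule list (7.88, 42.8 and 2.70). Keeping a gene this way favours a higher value in Ly6G+ DC. The enzyme genes on the primary granule list were neither higher nor lower at an unadjusted p under 0.05 by limma. Ctsc had 0.50 ± 0.37, Elane 0.79 ± 0.65, Mpo 0.21 ± 0.39 and Prtn3 -0.47 ± 0.39. Of 8 myeloid growth factor receptor genes, Csf3r, the receptor for G-CSF, was higher with 2.45 ± 0.53 and Flt3 lower with -1.86 ± 0.43. Ngp, Camp, Ltf and Csf3r are counted among the neutrophil markers too, Flt3 among the dendritic cell markers and Csf1r among the macrophage markers. The counts of these lists are therefore not separate.

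Related and other lineage regulators were read in the same way. Of 16 kept bZIP relatives and partners 3 were higher and 1 lower at an unadjusted p under 0.05, with a median of 0.32, and Fos had 1.11 ± 0.33 and Batf3 -0.93 ± 0.36 (SE). Of 18 relatives and cofactors of the factors without a bZIP domain 2 were higher and 1 lower, with a median of 0.13. Spib, the closest relative of Spi1 on that list, had -1.20 ± 0.35 and Klf2 had 1.33 ± 0.47. Of 18 further regulators of granulocyte development 3 were higher and 2 lower, with a median of 0.12, Egr1 at 1.66 ± 0.31 and Stat5a at -0.91 ± 0.30. Of 13 dendritic cell lineage factors 1 was higher and 5 were lower, with a median of -0.42, and Irf8 had -1.01 ± 0.34. Spib, Batf3, Nfil3 and Klf4 are counted among the dendritic cell lineage factors too, and Irf8 and Ikzf1 among the regulators of granulocyte development. Gata2, 1 of these regulators, also stands among the eosinophil, basophil and mast cell markers. Zbtb46 stands among both the dendritic cell lineage factors and the dendritic cell markers, and is counted as lower in each.

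The genes with the profile closest to Cebpd 1423233_at over the 6 arrays were Pon2, Fyb and Tsen15. Likeness was the root mean square difference between log2 profiles centred on their own means, which was 0.089, 0.11 and 0.12 for these genes among 13261. Their log2 fold changes were 0.75, 0.74 and 0.86, and values near that of Cebpd follow from the way these genes were chosen. The arrays shared by the profiles also carry the group and side differences.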

How the data were processed

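Per the labels, Trizol was used to isolate RNA, of which 200 ng entered biotin labelling by in vitro transcription. The deposited values are signal intensities on a linear scale with a 2% trimmed mean of 250.0 on every array, the scaling the authors applied. Tools listed by the submitters' processing notes are MAS5, GCOS and Affymetrix Expression Console 2.0. Other settings are not given in the sources used here. The trim leaves the very brightest probe sets out of this mean, but bright ones that stay in it weigh most and can shift all others. Dim probe sets are noisy. Of 45101 probe sets, 64 were controls and stayed out of the tests, and 34958 had 1 gene symbol, 932 several and 9211 none. All 9 member genes matched RefSeq by Entrez identifier.

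The deposited intensities were analysed as log2(signal + 16), which understates the fold change of dim genes. limma 3.58.1 (R 4.3.3; eBayes after lmFit, trend on) tested the group alone, two-sided, with Benjamini-Hochberg adjustment over all kept probe sets, after the code had been tested on simulated data. The members, gene lists and array sides were chosen with earlier results of these data known. Named genes were all members, up to 4 genes past the threshold per list or else the 2 of smallest p, and, for members with an unadjusted p under 0.05, the 3 nearest profiles. S100a8, Itgax, H2-Aa, H2-Ab1, H2-Eb1 and Cd177 were named in addition, chosen after their values were seen. The blocks and other alternatives are given in the closing section. The number of arrays limits the precision.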

Additional observations from a re-analysis of the deposited data

How the results depend on the processing

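Under the 17 other settings that gave a test, 0 transcription factor probe sets passed an adjusted p of 0.05, with 18 tested in each except the 60th percentile filter (16) and 1 probe set per gene (8). The 4 comparisons within a side or an array name gave values with no test. Over all kept probe sets, where the group alone called 0, the replicate block called 19, the array name as a block 21 and the fits without 1 array 0 to 24, with 24 without Ly6G- DC 1, where the low side keeps no Ly6G- DC array. Correlations of deviations between same-numbered arrays were 0.520, 0.263 and -0.043. Not every pair was over 0.1, so the numbers were not taken as pairs, and not every array correlated best with its own number. The number 1 arrays share an array name and the low side, and the number 2 arrays the high side, and whether equal numbers share a culture is not given in the sources used here. Arrays scaled to a common median moved the median log2 fold change of all kept probe sets from -0.06 to 0.23, and the unadjusted calls to 1775 higher and 239 lower, against 778 and 811. Quantile normalization gave 912 and 543, a 60th percentile filter 584 and 360, and no filter 1017 and 1613.

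Signs turned as follows. With a common median, Cebpa gave 0.11, Runx1 1422864_at 0.32, Runx1 1452531_at 0.13, Klf5 1451021_a_at 0.24, Klf5 1451739_at 0.085 and Bcl6 1450381_a_at 0.061. Klf5 1451021_a_at was 0.13 after quantile normalization, and Runx1 1422864_at was 0.0099 with a pseudocount of 1. With the side as a block, Runx1 1422864_at was 0.81, Runx1 1422865_at -0.036 and Runx1 1452531_at 0.35. Against the fit of the group alone, 7 of 18 had the other sign within the low side, 2 within the high side, 7 within the array name of number 1 (Cebpa 0.31 and Spi1 0.18 among them) and 1 within that of numbers 2 and 3. Leaving out 1 array gave ranges across 0 for Cebpa (-0.80 to 0.32), Spi1 (-0.96 to 0.017), Cebpd 1456605_at (-0.96 to 0.072), Jdp2 1424972_at (-0.55 to 0.45), Jdp2 1450350_a_at (-0.069 to 0.70), Runx1 1422864_at (-1.05 to 0.67), Runx1 1440878_at (-0.17 to 1.48), Runx1 1452530_a_at (-0.52 to 0.71), Runx1 1452531_at (-0.78 to 0.35), Klf5 1451021_a_at (-0.11 to 0.019), Klf5 1451739_at (-0.45 to 0.047) and Bcl6 1450381_a_at (-0.86 to 0.20). The causes were not tested. Under all settings run that kept them, with and without a test, Cebpb 1418901_at, Cebpb 1427844_a_at, Cebpd 1423233_at, Runx1 1427650_a_at and Bcl6 1421818_at kept their sign. Gfi1 and 1 Klf5 probe set were too dim to compare.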
